A study of Homo sapiens with 16 samples.

Results

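The promoters of SDC4, ATG16L2, MRPL30, HMGXB4, ARHGAP31-AS1 and KCTD11 carry p65 in TNFα-treated HT29 and SW480 colon cancer cells, and none of the 6 genes belongs to the feedback circuit of NFκB. The 6 intervals were listed by position on GRCh38 and chosen by their p65 signal, which was strong in the mock cells of both lines, and they are 6 of the 6112 sites called in these data in at least 1 condition. A site was called where a window of 200 bp held a mean signal of at least 2.5, at least 4-fold its input and 4-fold the 10 kb around it, in 2 of 3 libraries of a group. Each interval was read in the 16 coverage tracks over the interval and over the 10 kb around it. The values that chose the members, their level in both mock groups, are given as a description with no test, and a fall from a mock level can in part come from that choice.

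HT29 and SW480 are established lines of human colorectal adenocarcinoma. The paper gives the estrogen receptor ERβ (ESR2) as not expressed in either parental line. Each line had been transduced with ERβ or, as mock, carried the corresponding control, so the 4 groups are HT29 mock, HT29 ERβ, SW480 mock and SW480 ERβ, each with 3 p65 ChIP libraries and 1 input library, 12 ChIP and 4 input libraries in all. The cells of every group had been moved to medium with charcoal-stripped serum, received no estrogen, and were treated with TNFα at 30 ng/ml for 30 min before cross-linking with DSG and formaldehyde, so no level without TNFα can be given. ERβ was exogenous, and the sources used here do not say whether each cell line with it was 1 clone or a pool. The study's methods call the 3 libraries of a group biological replicates without saying that they were separate cultures. The p-values therefore measure the spread between these libraries, and limma drew that spread largely from all sites tested and less from the single site. The unit of all levels below is the mean signal, in which the authors had brought the tag density of each library to a total of 10 M tags.

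NFκB dimers are held in the cytoplasm by IκB proteins until TNFα sets off the kinases that destroy these inhibitors, after which p65 (RELA) enters the nucleus and binds κB elements, short GC-flanked DNA sequences, in promoters and enhancers. Its best known promoter targets encode its own inhibitors and subunits, such as NFKBIA and NFKB2, and TNFAIP3, a ubiquitin-editing brake on the pathway. The 6 genes described here have other roles. SDC4 encodes syndecan-4, a heparan sulfate proteoglycan of the cell surface and of focal adhesions. KCTD11 encodes an adaptor of the cullin-3 ubiquitin ligase known as an antagonist of Hedgehog signalling, and ATG16L2 a relative of the autophagy protein ATG16L1. MRPL30 encodes a protein of the large subunit of the mitochondrial ribosome, HMGXB4 a nuclear protein with an HMG box, and ARHGAP31-AS1 is a long noncoding RNA antisense to ARHGAP31, which encodes a GTPase-activating protein for Rac1 and Cdc42.

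The sequence under each member is printed here because all 6 hold a κB element under the p65 signal. It is GRCh38 sequence in the direction of the gene, exons left out, in lower case with exact matches to the 10-base κB consensus in capitals.
SDC4, chr20:45348425-45348611, minus strand: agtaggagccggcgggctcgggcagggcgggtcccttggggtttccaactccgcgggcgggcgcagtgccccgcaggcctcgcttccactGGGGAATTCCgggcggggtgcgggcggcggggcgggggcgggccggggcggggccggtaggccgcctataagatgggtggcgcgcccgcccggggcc
KCTD11, chr17:7351705-7351888, plus strand: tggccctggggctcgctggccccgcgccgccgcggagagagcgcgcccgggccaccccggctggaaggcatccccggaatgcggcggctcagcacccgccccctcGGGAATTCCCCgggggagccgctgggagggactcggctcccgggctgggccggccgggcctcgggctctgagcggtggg
ATG16L2, chr11:72814170-72814386, plus strand: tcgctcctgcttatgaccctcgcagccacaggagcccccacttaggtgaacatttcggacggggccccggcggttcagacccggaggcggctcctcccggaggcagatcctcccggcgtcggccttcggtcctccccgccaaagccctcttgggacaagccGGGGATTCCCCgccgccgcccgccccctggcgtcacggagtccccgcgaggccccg
MRPL30, chr2:99181059-99181151, plus strand: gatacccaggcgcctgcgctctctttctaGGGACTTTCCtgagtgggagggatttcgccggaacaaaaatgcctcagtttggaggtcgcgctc
HMGXB4, chr22:35257316-35257451, plus strand: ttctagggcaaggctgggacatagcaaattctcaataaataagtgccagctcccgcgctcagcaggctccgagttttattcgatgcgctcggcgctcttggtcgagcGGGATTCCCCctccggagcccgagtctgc
ARHGAP31-AS1, chr3:119323168-119323407, minus strand: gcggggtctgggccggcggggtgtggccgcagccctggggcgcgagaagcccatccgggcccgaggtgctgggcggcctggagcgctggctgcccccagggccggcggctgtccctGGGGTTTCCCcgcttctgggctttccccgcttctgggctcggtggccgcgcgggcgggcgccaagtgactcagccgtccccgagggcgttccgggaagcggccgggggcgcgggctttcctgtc
In KCTD11 and ATG16L2 the capitals are 2 matches that overlap by all but 1 base, so that they form 1 run of 11 bases.

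By annotation (GENCODE release 44) the middle of 5 of the 6 intervals lay close upstream of a start site, which the intervals of SDC4, KCTD11, MRPL30 and HMGXB4 also contained. The middle of the interval was 84 bp upstream of the nearest start of SDC4 (ENSG00000124145), 72 bp upstream of KCTD11 (ENSG00000213859), 128 bp upstream of ATG16L2 (ENSG00000168010), 34 bp upstream of MRPL30 (ENSG00000185414) and 29 bp upstream of HMGXB4 (ENSG00000100281). Several of these promoters face a second gene. The MRPL30 interval also held the divergent start of MITD1, a gene of the last step of cell division, 60 bp from its middle, and the middle of the ATG16L2 interval was 206 bp from the start of an unnamed noncoding RNA on the other strand. A start of ACAP1, which lies on the same strand as KCTD11, was 952 bp upstream of the middle of the KCTD11 interval. The ARHGAP31-AS1 interval (ENSG00000241155) was the exception, 527 bp upstream of its start with its middle inside an intron of ARHGAP31, 1605 bp from an internal start of that gene. Exon sequence made up 19 bases of the SDC4 interval, 41 of KCTD11, 116 of MRPL30, 80 of HMGXB4 and none of the ATG16L2 and ARHGAP31-AS1 intervals, which are 206 to 240 bp long.

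The 6 differed in composition around a shared κB match. GC content was 79.6% in SDC4, 77.9% in ARHGAP31-AS1, 76.9% in KCTD11, 72.4% in ATG16L2, 61.1% in HMGXB4 and 55.5% in MRPL30, beside a median of 66.5% in the 242 other promoter sites called in all 4 conditions. An exact κB match was held by 6 of the 6 intervals, by 84.3% of those 242 sites, by 62.1% of the 1838 other promoter sites called in any condition, by 6.29% of windows 1 kb to either side of promoter sites and by 6.62% of RefSeq promoters over the 200 bp before the start. Of the 242 sites, 31.4% held 2 or more matches, as did KCTD11 and ATG16L2 here. The AP-1 element, searched as TGAGTCA or TGACTCA on both strands, was present in ARHGAP31-AS1 alone among the 6, centred at position -463 bp from the start, and in 9.92% of the 242 sites. GC boxes (GGGCGG on either strand) numbered 8 in SDC4, 2 each in ATG16L2 and ARHGAP31-AS1, 1 in KCTD11 and 0 in MRPL30 and HMGXB4, and 54.5% of the 242 sites held at least 1. An ETS element (CCGGAAG on either strand) was found in MRPL30 alone, against 7.44% of the 242 sites. Neither CCAAT nor TATAAA was found in any of the 6 intervals, against 18.2% and 3.72% of the 242 sites.

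A check of the libraries precedes the values. An ERβ construct carries exons without introns, and the signal over coding exons of ESR2 divided by that over its introns was 4.24 to 7.69 in HT29 ERβ and 1.04 to 1.35 in HT29 mock ChIP libraries, and 2.54 to 3.03 in SW480 ERβ and 1.29 to 1.55 in SW480 mock. In the inputs it was 2.17 and 1.24 in HT29 ERβ and mock, and 1.79 and 1.51 in SW480 ERβ and mock. The ratio does not measure the level of ERβ, which the paper gives as higher in SW480 than in HT29. Replicate 1 stood apart in 3 groups. It had 5661 called regions in HT29 mock against 1898 and 2057 in replicates 2 and 3, 4121 in HT29 ERβ against 1420 and 1206, and 3217 in SW480 ERβ against 7104 and 6233. The 6 promoters moved with it. Replicate 1 was 1.66 to 2.06 times the mean of the other replicates at the 6 in HT29 mock, 1.93 to 2.29 times in HT29 ERβ, 0.426 to 0.693 times in SW480 ERβ and 0.550 to 1.15 times in SW480 mock. The part of these libraries in each comparison is therefore given beside it. The tracks are scaled to a single total, so they do not hold the depth of a library. Read totals given by the study are not used here, and no counting interval is given.

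All 6 promoters stood far above input in every library. Over the 12 ChIP libraries the signal at the 6 was 4.97 to 34.7, against 0.390 to 1.39 in the 4 inputs, which is 7.64 to 65.1 times the input of the same group and 10.5 to 90.3 times the surrounding 10 kb. Each was called in 3 of 3 libraries of all 4 groups. Among the 291 promoter sites called in both mock groups, ranked by the mean of log2(signal + 1) over the mock libraries, ATG16L2 was at rank 2, MRPL30 at 7, ARHGAP31-AS1 at 9, SDC4 at 10, HMGXB4 at 12 and KCTD11 at 14, with feedback genes of NFκB at ranks 1, 3, 4, 5, 6 and 8. No threshold divides them from other sites in that order, since ranks 11 and 13 are not among the 6, and the site at rank 15 had a mean log2 value of 3.64 against 3.73 for KCTD11. By signal KCTD11 owed its place to 1 line, with rank 70 in HT29 mock and rank 5 in SW480 mock. These ranks are of signal not divided by input. In HT29 mock the mean fold over input was 17.8 at KCTD11 and 16.8 at SDC4, which was at rank 5 there. It was 22.1 to 36.7 at the rest of the 6.

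At SDC4 the signal in HT29 mock libraries was 24.7, 14.5 and 12.6, with a mean of 17.3 ± 6.53 (SD, n = 3), and in HT29 ERβ libraries 24.2, 10.5 and 10.7, with a mean of 15.1 ± 7.88 (SD, n = 3). The groups overlapped almost wholly, with replicate 1 high in both. SW480 mock libraries gave 9.41, 10.7 and 13.3 (11.2 ± 2.00, SD, n = 3), and SW480 ERβ libraries 15.998, 31.3 and 24.2 (23.8 ± 7.68, SD, n = 3). Here the groups did not overlap, and the lowest ERβ library was above the highest mock library. The nearest other called site was centred at -11392 bp from the interval middle, upstream and beyond its 10 kb, which lay in no promoter, was called in all 4 groups and had mean signals of 11.8 and 10.9 in HT29 mock and ERβ and 11.5 and 21.1 in SW480 mock and ERβ.

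KCTD11 showed the widest range. HT29 mock libraries gave 11.4, 6.30 and 7.37 (8.37 ± 2.70, SD, n = 3) and HT29 ERβ libraries 11.6, 5.36 and 4.97 (7.32 ± 3.74, SD, n = 3), the lowest levels of any member in HT29. In SW480 mock the values were 18.9, 19.96 and 16.1 (18.3 ± 1.98, SD, n = 3) and in SW480 ERβ 19.1, 34.7 and 29.3 (27.7 ± 7.92, SD, n = 3). Every SW480 library was above every HT29 library of the same construct, while within SW480 the ERβ and mock groups overlapped through ERβ replicate 1. In SW480 ERβ cells KCTD11 was at rank 1 of the 291 promoter sites, by signal not divided by input.

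The ATG16L2 signal was 26.9, 14.4 and 15.6 in HT29 mock (19.0 ± 6.89, SD, n = 3) and 26.0, 11.2 and 12.1 in HT29 ERβ (16.4 ± 8.31, SD, n = 3). SW480 mock gave 15.98, 24.1 and 17.7 (19.3 ± 4.28, SD, n = 3) and SW480 ERβ 11.3, 31.0 and 22.01 (21.4 ± 9.88, SD, n = 3). All 4 groups overlapped, and the lowest SW480 ERβ library was below every SW480 mock library. The 4 group means of this relative of an autophagy gene, 16.4 to 21.4, lay closer together than the lowest and highest libraries within each of the 4 groups.

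MRPL30, in the promoter shared with MITD1, gave 22.5, 13.2 and 13.9 in HT29 mock (16.5 ± 5.20, SD, n = 3) and 22.3, 11.1 and 9.92 in HT29 ERβ (14.4 ± 6.81, SD, n = 3). In SW480 it gave 14.9, 15.1 and 10.8 with mock (13.6 ± 2.42, SD, n = 3) and 12.02, 26.0 and 19.7 with ERβ (19.3 ± 7.01, SD, n = 3). The groups overlapped within each line. HMGXB4 was the lowest but 1 in HT29, with 21.8, 9.85 and 11.3 in mock (14.3 ± 6.49, SD, n = 3) and 15.4, 8.23 and 6.63 with ERβ (10.1 ± 4.67, SD, n = 3). In SW480 the HMGXB4 libraries gave 8.13, 17.6 and 11.9 with mock (12.6 ± 4.80, SD, n = 3) and 10.3, 24.0 and 19.1 with ERβ (17.8 ± 6.95, SD, n = 3), and the groups again overlapped.

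ARHGAP31-AS1 gave 22.4, 12.8 and 13.2 in HT29 mock (16.1 ± 5.45, SD, n = 3) and 19.4, 10.4 and 9.59 in HT29 ERβ (13.1 ± 5.41, SD, n = 3). Its SW480 mock libraries, at 11.2, 12.1 and 12.9, were the tightest group of all (12.1 ± 0.878, SD, n = 3), and its SW480 ERβ libraries gave 18.01, 28.3 and 23.6 (23.3 ± 5.17, SD, n = 3). Like SDC4, it had SW480 groups that did not overlap. The promoter of ARHGAP31 itself, the coding gene on the other strand, held a separate site centred 29237 bp away in the direction of antisense transcription, which was called in SW480 ERβ alone, with mean signals of 0.646 in HT29 mock, 0.677 in HT29 ERβ, 1.08 in SW480 mock and 3.96 in SW480 ERβ.

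**Figure D1:**
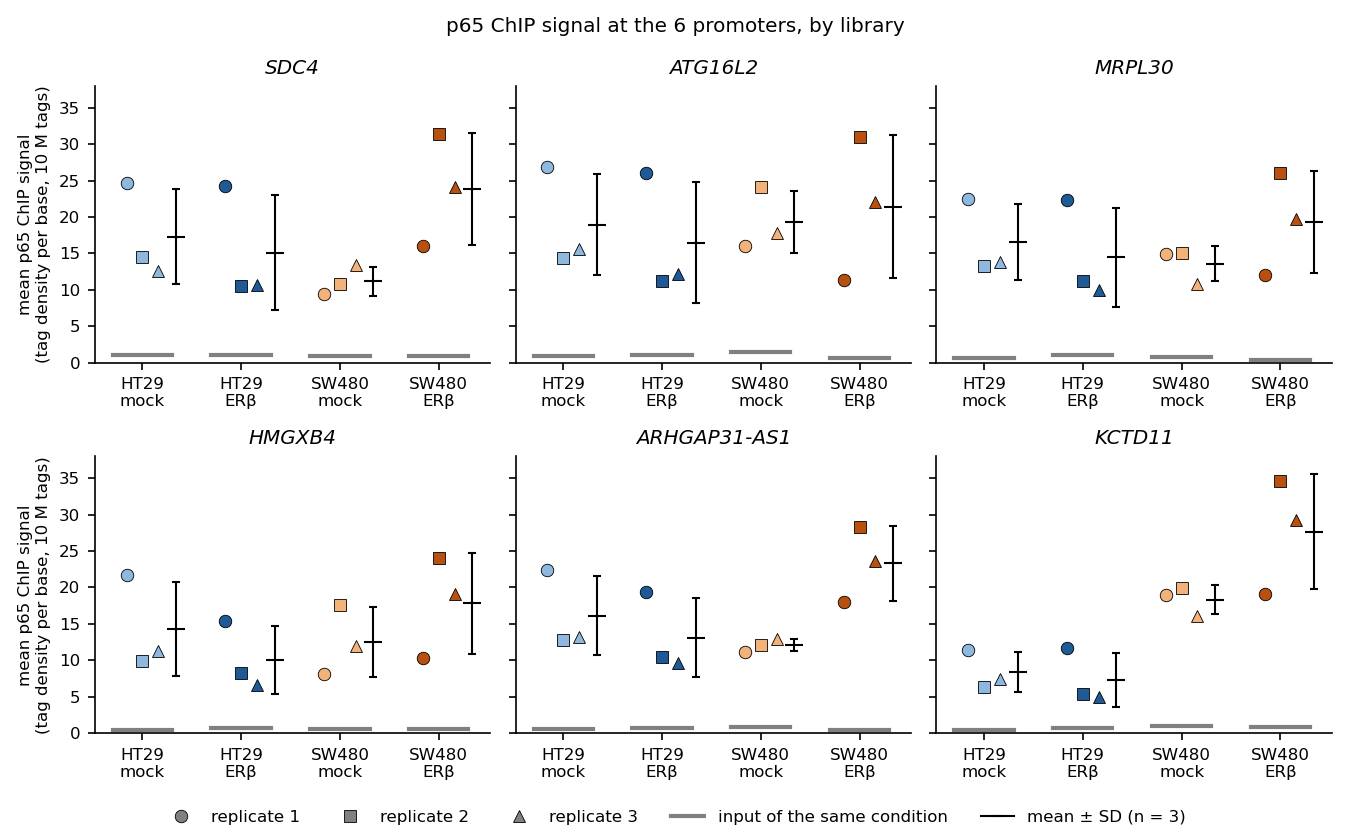
Mean p65 ChIP signal over each of the 6 promoter intervals (y axis, tag density per base scaled to 10 M tags) by group (x axis), with replicates 1, 2 and 3 as circle, square and triangle, the mean ± SD (n = 3) as a black bar and the input of the same group as a grey line. HT29 replicate 1 is the highest library of its group in all 6 panels, SW480 ERβ replicate 1 the lowest of its group, and KCTD11 is the only gene with all SW480 values, 16.1 to 34.7, above all HT29 values, 4.97 to 11.6.

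The signal formed 1 narrow summit at each promoter. Its width midway between 0 and the highest base of the group mean was 192 to 260 bp at HMGXB4, 195 to 251 bp at MRPL30, 246 to 314 bp at KCTD11, 255 to 301 bp at SDC4, 308 to 357 bp at ATG16L2 and 264 to 389 bp at ARHGAP31-AS1 over the 4 groups, so the narrowest were the members poorest in GC. At all 6 the widest group was HT29 ERβ. Widths and highest bases were read from the group mean after smoothing over neighbouring bases. KCTD11 had a shoulder on the side of the gene, where the mean signal 250 bp downstream of the interval middle was 12.9 in SW480 ERβ and 7.82 in SW480 mock, against 4.24 and 3.38 at 250 bp upstream. In HT29 the same positions of KCTD11 gave 4.30 and 2.95 downstream in mock and ERβ and 2.23 and 1.91 upstream. ATG16L2 was uneven the other way. Upstream it gave 7.28 and 6.15 in HT29 mock and ERβ and 3.79 and 7.70 in SW480 mock and ERβ. Downstream these were 4.51, 2.97, 2.92 and 4.28. No other called site lay within 10 kb of any of the 6 intervals.

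**Figure D2:**
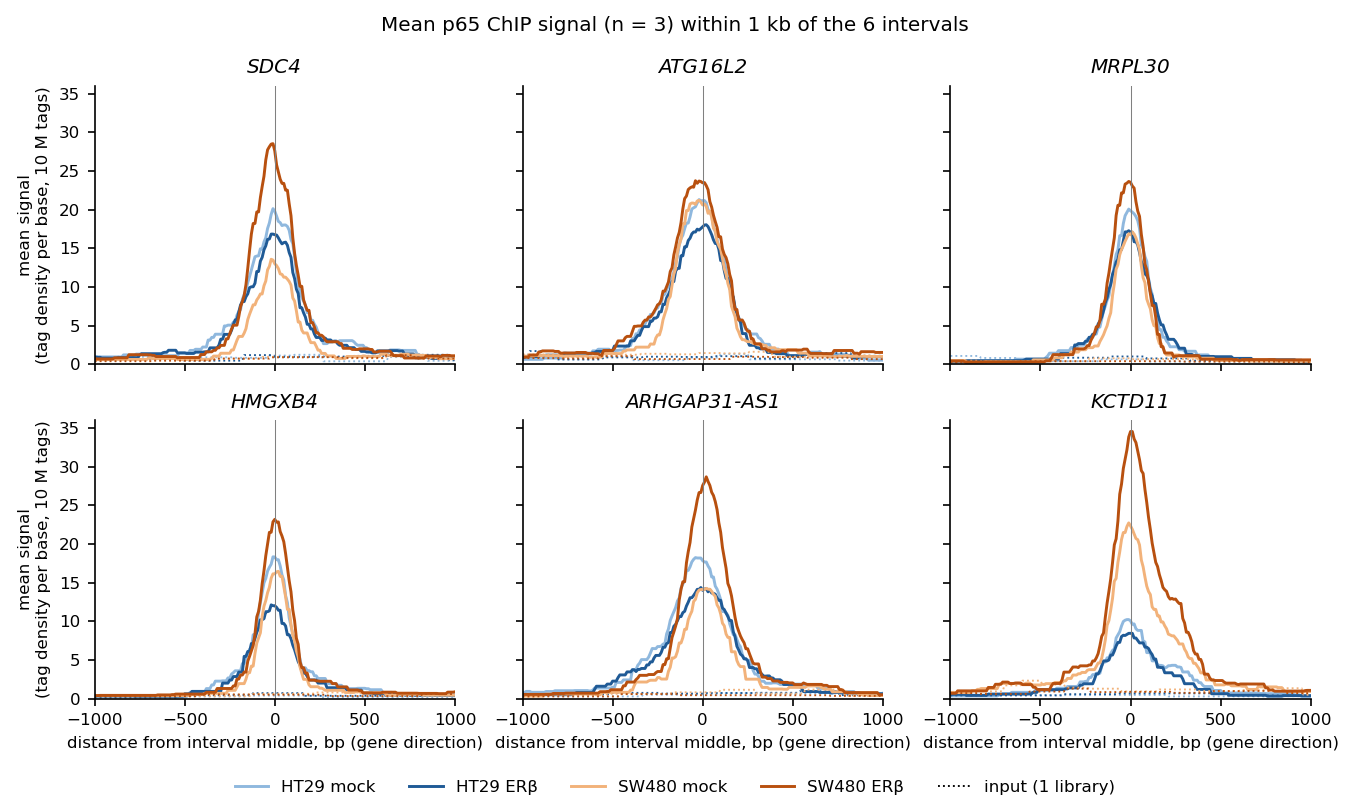
Mean p65 ChIP signal of 3 libraries (solid lines) and signal of the 1 input library (dotted lines) in each group (y axis, tag density per base scaled to 10 M tags) against the distance from the interval middle in bp, in the direction of the gene (x axis, 1 kb to either side). Each promoter shows 1 summit near 0, KCTD11 in SW480 a shoulder on the side of the gene, and ATG16L2 more signal on the upstream side.

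The highest base fell close to the κB match at 5 of the 6. Over the 4 groups, the centre of the match was from 4.5 bp upstream to 8.5 bp downstream of the highest base at SDC4, from 6.5 bp upstream to 18.5 bp downstream at KCTD11, from 11.5 bp upstream to 18.5 bp downstream at HMGXB4, from 28.5 to 5.5 bp upstream at MRPL30 and from 23.5 bp upstream to 21.5 bp downstream at ARHGAP31-AS1. ATG16L2 was different, with its match centred 43.5 to 93.5 bp downstream of the highest base in all 4 groups. At ATG16L2 and KCTD11, whose matches overlap, the match nearest to the highest base was read. Measured from the start sites, with upstream positions below 0, the summit was at -43 to -13 bp at HMGXB4, -54 to -31 bp at MRPL30, -93 to -67 bp at KCTD11, -101 to -88 bp at SDC4, -164 to -114 bp at ATG16L2 and -548 to -503 bp at ARHGAP31-AS1.

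**Figure D3:**
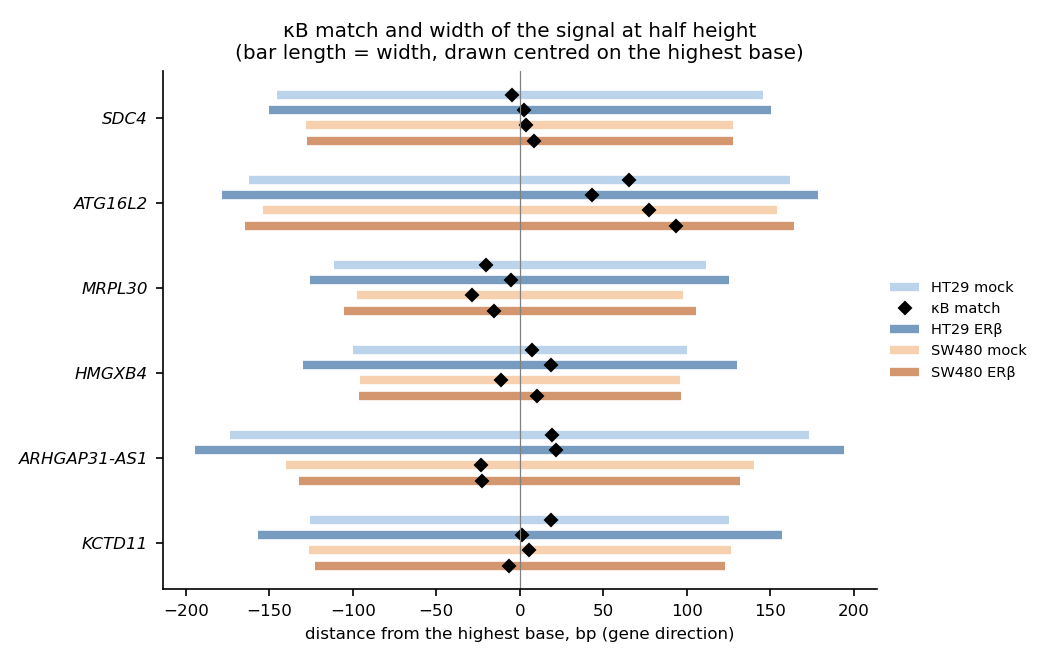
For each promoter and group, the distance in bp from the highest base of the smoothed mean signal (x axis, direction of the gene) of the κB match (diamond, centre of the match, or of the nearest of overlapping matches), and the width of the signal midway up its height (bar, drawn centred on the highest base). The match lies within 28.5 bp of the highest base at 5 promoters and 43.5 to 93.5 bp downstream of it at ATG16L2.

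The first comparison asks whether ERβ went with a change of p65 signal in HT29, as the study compared mock and ERβ cells within each line. As deposited, the mean of log2(signal + 1) differed by -0.47 to -0.22 at the 6 promoters, which turned to above 0 at 3 of them after centring and 4 after quantile normalisation, and none passed the test. With limma and adjustment over the 2512 sites called in either HT29 group, the adjusted p was 0.978 for each of the 6, and the call count was 0 of 6 members and 0 of 2512 sites (0%). At an unadjusted p below 0.05 the counts were 0 members and 4 sites. HMGXB4 had the largest difference, -0.47 with a standard error of 0.49, and the other 5 lay between -0.22 and -0.30 with standard errors of 0.46 to 0.50. The groups of all 6 overlapped, and across the 2512 sites 1.79% did not, 0.0796% with ERβ higher and 1.71% with ERβ lower. The median of the 6, -0.24, was close to that of all sites, -0.27, and of the 242 promoter sites, -0.25. When each library was centred on the median of sites called in all 4 groups, or quantile normalised, the differences of SDC4, MRPL30 and KCTD11 turned above 0 in both cases and that of ATG16L2 in the second, with sizes of at most 0.07, and without HT29 mock replicate 1 those 4 were between 0.0012 and 0.05. Without HT29 ERβ replicate 1 all 6 lay between -0.79 and -0.57, beside a median of -0.53 over all sites. Without replicate 1 of both HT29 groups they lay between -0.46 and -0.33 (limma adjusted p = 0.0974 to 0.274), beside 43 called sites (1.71%), 1 of them higher with ERβ. HMGXB4 ranged from -0.79 to -0.14 over these fits and those without any other library, with no call of the 6. With the replicate number as a block HMGXB4 was called and the other 5 were not. That fit called 299 sites (11.9%), 2 of them higher with ERβ. The numbers were not taken to pair the HT29 libraries, by a correlation over sites that leaves out a height shared by all sites. Replicate 1 was the highest library of both HT29 groups at all 6, and the fit without a block counts that height as spread. Whether the numbers pair these libraries is not settled. The count of 0 therefore holds for the fit without a block.

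In SW480 the same comparison gave differences above 0 at all 6 as deposited but at only 2 after centring, and 2 passed the test as deposited. SDC4 rose by 0.99 on the log2(signal + 1) scale (standard error 0.34, limma adjusted p = 0.00918) and ARHGAP31-AS1 by 0.87 (standard error 0.33, limma adjusted p = 0.0200), in each with 3 of 3 ERβ libraries above 3 of 3 mock libraries. Of the 5337 sites called in either SW480 group 62% were called different, every one of them higher with ERβ as deposited (77.5% of those called with quantile normalisation), and in 58.4% the groups did not overlap. The share called moved with single libraries, from 27.8% without ERβ replicate 3 to 94% without ERβ replicate 1, and was 7.1% after centring, where 1 of the 6 was called, so no order of the 6 and the background is read from it. Many of these sites were called in the ERβ group alone and entered the test through the group where they are high, which does not hold for the 242 other promoter sites, of which 39.3% were called. KCTD11 (0.53, adjusted p = 0.127), HMGXB4 (0.46, adjusted p = 0.204) and MRPL30 (0.42, adjusted p = 0.233) did not pass in limma, with standard errors of 0.33 to 0.34. ATG16L2 differed least, by 0.06 (standard error 0.33, adjusted p = 0.861 in limma), at the 1.01 percentile of all sites tested and the 0.826 percentile of the 242 promoter sites. Its place there can in part come from the choice of members by a high mock level. The median of the 6 was 0.50, against 0.79 over all sites and 0.65 over the 242.

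How firmly these SW480 values can be read depends on single libraries and on scaling. The SDC4 call was lost without mock replicate 1 (limma adjusted p = 0.0890), mock replicate 2 (0.0621), ERβ replicate 2 (0.0553) or ERβ replicate 3 (0.0806), and that of ARHGAP31-AS1 without mock replicate 1 (0.110), 2 (0.0862) or 3 (0.0507) or ERβ replicate 2 (0.0695) or 3 (0.115). Without ERβ replicate 1, the low library, the call count was 5 of 6, beside 94% of all sites, with SDC4 at 1.24, ARHGAP31-AS1 at 1.04, HMGXB4 at 0.79, KCTD11 at 0.77 and MRPL30 at 0.71, and ATG16L2 at 0.44 (adjusted p = 0.0560). Centring moved the median of all sites from 0.79 to 0.09. On that scale SDC4 (0.29, limma adjusted p = 0.278) and ARHGAP31-AS1 (0.17, limma adjusted p = 0.577) were no longer called, and ATG16L2 was lower with ERβ, by 0.65 (limma adjusted p = 0.0138), while MRPL30, HMGXB4 and KCTD11 lay between -0.28 and -0.17 and did not pass. ATG16L2 was chosen for a high mock level, so its fall can in part come from that choice. Divided by the input over 100 kb to either side, KCTD11 was called as well (0.83, limma adjusted p = 0.0301), for 3 of 6 members beside 75.3% of sites. That input was 0.641 in SW480 mock and 0.512 in SW480 ERβ, from 1 library each. The signal over the 10 kb around KCTD11 was 0.724 to 0.796 in mock and 0.707 to 0.795 in ERβ ChIP libraries. With quantile normalisation ATG16L2 was at -0.46 (adjusted p = 0.0824).

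**Figure D4:**
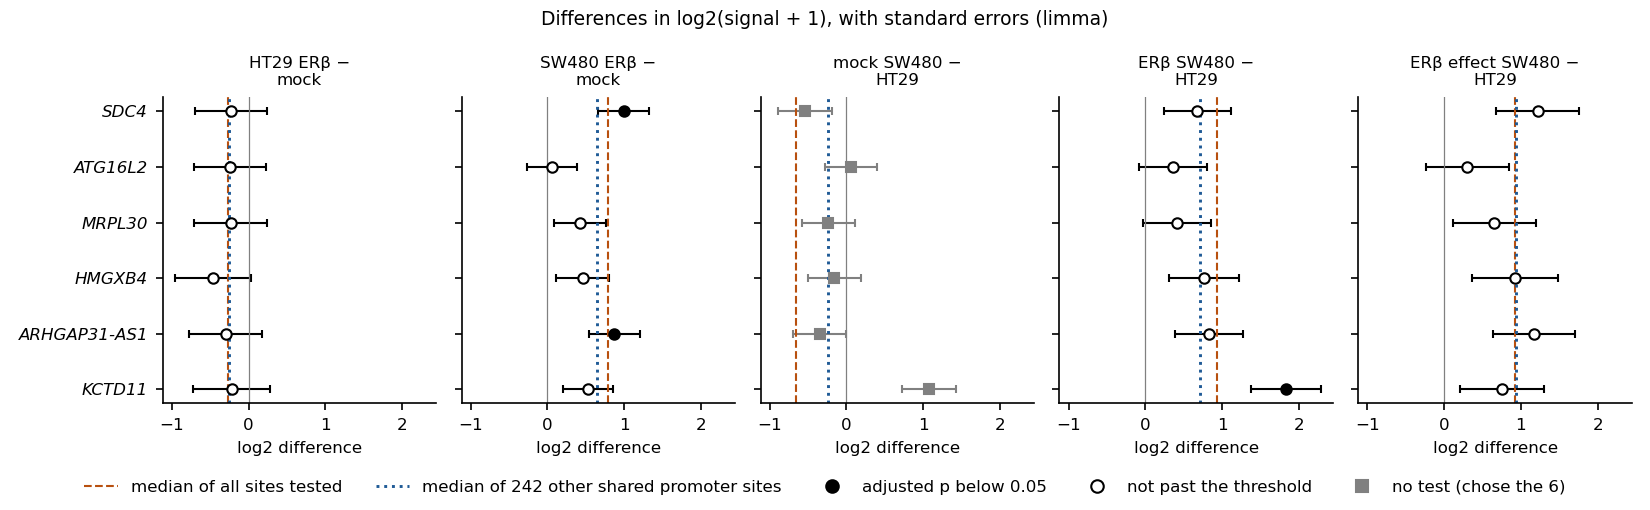
Differences in log2(signal + 1) with standard errors from limma (x axis) at the 6 promoters (y axis) in the 5 comparisons, filled where the adjusted p is below 0.05 and as grey squares with no test between mock cells, with the median of all sites tested (dashed) and of 242 other shared promoter sites (dotted). In HT29 HMGXB4 lies at -0.47 and the other 5 between -0.30 and -0.22, beside a median of -0.27, in SW480 ATG16L2 lies at 0.06 against medians of 0.79 and 0.65, and KCTD11 lies to the right in both comparisons of the lines. With centring or quantile normalisation the SW480 difference of ATG16L2 is below 0.

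Between the mock cells of the lines KCTD11 differed most. Both groups of this comparison chose the members, so their differences are given with no test. KCTD11 was 1.08 higher in SW480 on the log2(signal + 1) scale, the groups did not overlap, and 99.2% of the 242 other promoter sites had no higher difference. The other 5 ranged from -0.54 at SDC4 to 0.06 at ATG16L2, and their groups overlapped. The background was 56.1% of 2719 sites called, 10.7% higher and 45.3% lower in SW480, and 17.4% of the 242, and 62.7% of all sites had groups that did not overlap, 11.8% higher and 50.9% lower in SW480. As deposited 19.1% of the called sites were higher in SW480, and with quantile normalisation 46.8%. The median of the 6 was -0.20, that of all sites -0.66 and that of the 242 sites -0.23.

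The line difference of KCTD11 went with a difference in the inputs. Over 100 kb to either side of the interval the input of HT29 mock was 0.236 and that of SW480 mock 0.641, a ratio of 2.72, while the ChIP signal had a ratio of 2.19. In the ERβ cells the input was 0.308 in HT29 and 0.512 in SW480, a ratio of 1.66, beside a ChIP ratio of 3.78. At the other 5 the input ratio of SW480 to HT29 was 0.740 to 1.55 in mock cells and 0.739 to 1.23 in ERβ cells. When each value was divided by that input, the mock difference of KCTD11 turned to -0.25. The number of copies of the region, which such an input would follow, and p65 binding per copy cannot be told apart with 1 input library per group. Division by the input also turned the differences of ATG16L2 to -0.18 and ARHGAP31-AS1 to 0.06. With any 1 library left out the undivided difference of KCTD11 was 0.92 to 1.30.

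**Figure D5:**
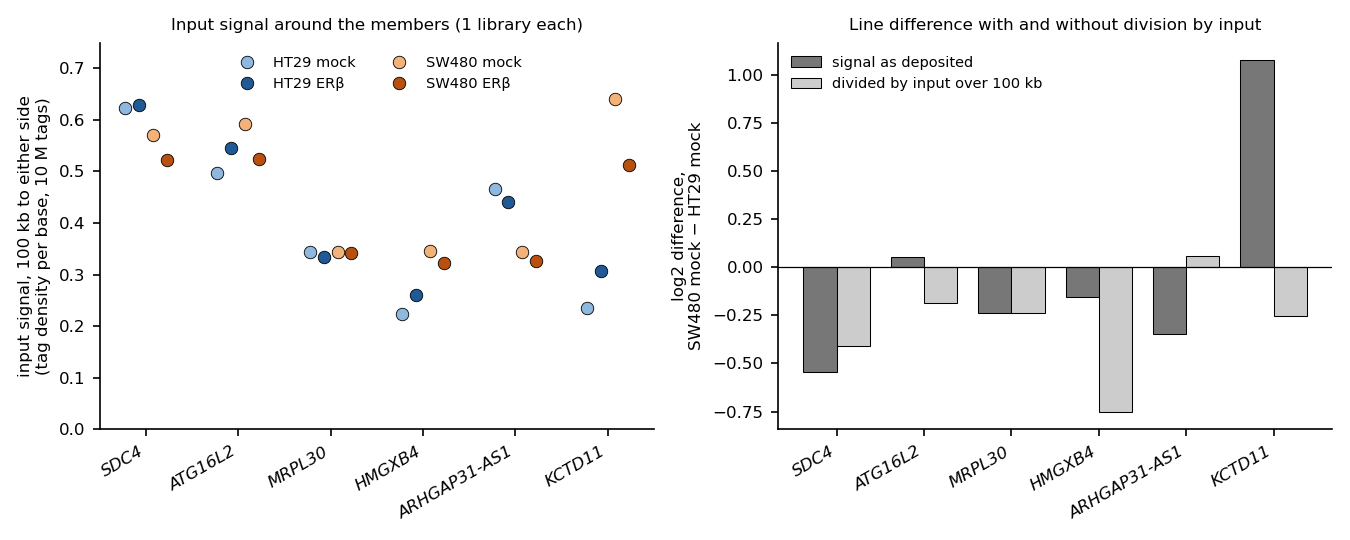
Left, input signal over 100 kb to either side of each promoter (y axis, tag density per base scaled to 10 M tags), 1 point for each of the 4 input libraries. Right, difference of SW480 mock minus HT29 mock in log2(signal + 1), as deposited (dark) and after division by that input (light), where KCTD11 goes from 1.08 to -0.25.

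Between the ERβ cells KCTD11 was the only member called. It was 1.83 higher in SW480 on the log2(signal + 1) scale (standard error 0.45, limma adjusted p = 0.000174), with 3 of 3 SW480 libraries above 3 of 3 HT29 libraries, at the 98.8 percentile of the 242 promoter sites. Divided by the input over 100 kb it kept its call, with a difference of 1.16 (limma adjusted p = 0.0277), and ARHGAP31-AS1 was called beside it, at 1.23 (limma adjusted p = 0.0165). That fit called 62.5% of sites, and the division rests on 1 input library per group. As a fold over the 10 kb around it in the same library, KCTD11 gave 38.6, 18.9 and 14.5 in HT29 ERβ. In SW480 ERβ this fold was 24.4, 49.1 and 36.8, so on that measure the groups overlapped. The other 5 lay between 0.36 at ATG16L2 and 0.83 at ARHGAP31-AS1, with limma adjusted p of 0.0895 to 0.474. The mock libraries that chose the members do not enter this comparison, but its cells are of the same lines. KCTD11 was already at rank 70 in HT29 mock and rank 5 in SW480 mock, so its call is not independent of that choice. Across 5761 sites 63.6% were called, 57.7% higher and 5.85% lower in SW480. Of the called sites 90.8% were higher as deposited, but 60.9% after centring and 54.6% with quantile normalisation. In 59.4% of all sites the groups did not overlap, 53.3% with SW480 higher and 6.02% with SW480 lower, while of the 242 promoter sites 24.8% were called. Medians were 0.72 for the 6, 0.93 for all sites and 0.71 for the 242. Without HT29 ERβ replicate 1 HMGXB4 (1.09, adjusted p = 0.0140), ARHGAP31-AS1 (1.12, adjusted p = 0.00975) and SDC4 (1.05, adjusted p = 0.0148) passed as well in limma, beside 73.8% of all sites, and without SW480 ERβ replicate 1 HMGXB4 did (1.10, adjusted p = 0.0353), beside 75.2%. Centred on shared sites, ATG16L2 was lower in SW480 by 0.35 (adjusted p = 0.0480), beside 41.5% of sites called, and with quantile normalisation ATG16L2 (-0.47, adjusted p = 0.00604) and MRPL30 (-0.40, adjusted p = 0.0114) were lower, beside 43.9% of sites called.

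Whether the ERβ effect differed between the lines was tested by the interaction of line and construct over all 12 ChIP libraries, and none of the 6 passed. The difference of effects was above 0 at all 6 as deposited but at only 2 after centring, at 1.22 for SDC4 (standard error 0.54, limma adjusted p = 0.0652), 1.17 for ARHGAP31-AS1 (standard error 0.54, adjusted p = 0.0724), 0.92 for HMGXB4 (adjusted p = 0.154), 0.76 for KCTD11 (adjusted p = 0.221), 0.65 for MRPL30 (adjusted p = 0.279) and 0.30 for ATG16L2 (adjusted p = 0.600). At an unadjusted p below 0.05 the count was 2 members, SDC4 and ARHGAP31-AS1, and 3041 of the 6112 sites. Of the 6112 sites 32.6% were called as deposited, all with the larger effect in SW480, and of the 242 promoter sites 12%. After centring 0.589% of the 6112 were called, 88.9% of these with the larger effect in SW480, and with quantile normalisation 1.77%, 83.3% of these with the larger effect in SW480. Medians were 0.84 for the 6, 0.92 for all sites and 0.94 for the 242, and ATG16L2 was at the 1.65 percentile of the latter. Without HT29 ERβ replicate 1, SDC4 (1.60, adjusted p = 0.00683), ARHGAP31-AS1 (1.47, adjusted p = 0.0118) and HMGXB4 (1.25, adjusted p = 0.0310) passed in limma, and the same 3 genes passed without SW480 ERβ replicate 1, at 1.47, 1.34 and 1.25 (adjusted p = 0.0166, 0.0255 and 0.0406). The share of all sites called was 58.8% and 64.7% in these fits. Without replicate 1 of both HT29 groups SDC4 (1.32, adjusted p = 0.0178) and ARHGAP31-AS1 (1.22, adjusted p = 0.0207) passed, beside 37.9% of sites. With the replicate number as a block within each line, 4 of the 6 passed, all but ATG16L2 and MRPL30, beside 75.2% of sites, though the numbers were taken to pair the libraries in SW480 alone. Centred on shared sites, ATG16L2, MRPL30, HMGXB4 and KCTD11 were below 0 and not called, as were ATG16L2 and MRPL30 with quantile normalisation. This test shares its libraries with the 4 comparisons above.

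Across libraries the members followed each other unevenly. Over the 12 ChIP libraries Pearson's r between log2 values was 0.96 for SDC4 and ARHGAP31-AS1 and 0.91 for ATG16L2 and HMGXB4, and KCTD11 had the lowest values, from 0.49 with SDC4 to 0.66 with ARHGAP31-AS1. These libraries share their scaling and the height of replicate 1, so the values are descriptions. Among the 242 other promoter sites, those whose log2 values were most alike to the mean of the 6 were at CS (r = 0.981), which encodes citrate synthase, PANX1 (0.968), which encodes a channel of the plasma membrane, an unnamed gene (ENSG00000287791, 0.965), CYREN (0.964), which encodes a regulator of DNA end joining, and MAPK6 (0.964), which encodes an atypical MAP kinase. The median r over the 242 was 0.850.

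Relatives of the 6 genes are given by count, beside 7.84% of 19962 protein-coding genes with a called promoter site, and each list but that of the ARHGAP genes holds its member by choice. Of 4 syndecan genes only SDC4 had a called promoter site, of 21 KCTD genes only KCTD11, and of 2 HMGXB genes only HMGXB4. Among 49 MRPL genes MRPL34 was the other, with mean signals of 2.94 in HT29 mock, 2.58 in HT29 ERβ, 2.84 in SW480 mock and 3.95 in SW480 ERβ, all far below those of MRPL30. Of 7 genes for the conjugation of autophagy proteins 3 had a promoter site. ATG10 was called in the HT29 groups alone, at 5.49 in mock and 4.30 with ERβ against 0.401 and 0.9502 in SW480 (mock difference -2.18, with no test since the site was tested only through the groups where it is high), and ATG5 in SW480 ERβ alone, at 2.31, and ATG16L2 exceeded both in every group. Of 35 ARHGAP genes 2 had a promoter site, ARHGAP24 and ARHGAP31, both called in SW480 ERβ alone, at 2.59 and 3.96.

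The 12 NFκB feedback genes read for comparison each had a promoter site called in all 4 groups. Group means of the 6 ran from 7.32 to 27.7, and those of the 12 from 5.77 for NFKB1 in SW480 mock to 27.6 for TNFAIP3 in SW480 ERβ. In SW480 mock NFKBIE, NFKBIZ, BCL3, NFKB1, REL and RELB were below SDC4, the lowest of the 6 at 11.2. In SW480 ERβ these and NFKBIB were below HMGXB4, the lowest of the 6 at 17.8. In both HT29 groups only NFKBIE was below KCTD11, the lowest of the 6. The remaining feedback genes were above the lowest member of each group. In SW480, ERβ went with called increases at 2 of the 12, NFKBIZ (0.80, limma adjusted p = 0.0369) and NFKB1 (0.92, adjusted p = 0.0188), beside 62% of all sites and 39.3% of the 242. Their median was 0.42, beside 0.50 for the 6, and TNFAIP3 differed by -0.03 (adjusted p = 0.933 in limma), near the 0.06 of ATG16L2. In HT29 0 of the 12 were called, with a median of -0.20. Between mock cells 2 of the 12 were called lower in SW480, NFKBIZ and NFKB1, beside 45.3% of all sites, and none was called higher, with TNFAIP3 at 0.72 (limma adjusted p = 0.0559). The difference between the 6 and the 12 was not tested, since both were chosen with earlier results of these data known.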

How the data were processed

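p65 ChIP-Seq was read in 12 ChIP and 4 input libraries. The authors aligned 75-cycle single reads to GRCh38 (hg38) with STAR, kept unique alignments and made tracks with HOMER. The deposited tracks hold signal, the tag density per base with tags drawn as 100-bp fragments, scaled by the authors to 10 M tags, and leave out stretches below 0.05. The tracks do not hold depth, and read totals given by the study are not used here. No counts could be recovered from the tracks, so no count test was run.

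Intervals were read as the mean over all bases. Sites were called in windows of 200 bp at steps of 50 bp, kept 400 bp apart, and joined over groups within 200 bp. A promoter reaches from 1 kb upstream to 100 bp downstream of a start site (GENCODE release 44). Differences are of log2(signal + 1), tested 2-sided with limma (3.58.1, R 4.3.3, mean-variance trend) over all sites called in the groups compared, with Benjamini-Hochberg adjustment over all of them and a threshold of 0.05. An exact permutation test of 3 against 3 libraries cannot go below 0.10, so none was used. Tools were samtools 1.23.1 and, in Python 3.11.15, pysam 0.24.0, numba 0.67.0, numpy 2.4.6 and pandas 2.3.3, and plots drawn with matplotlib 3.10.9. Promoter shares in RefSeq used its 200 bp before each start.

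The members and lists were chosen with earlier results of these data known. Named are the 6 members, genes next to them, 12 NFκB feedback genes at their strongest promoter site, relatives of the members by symbol with a called promoter site, and the 5 promoter sites most alike in pattern. Alternatives were the pseudocount, scaling, calling limits, window, local background, input, pooled spread, the replicate number as a block and each library left out. Same-numbered mock and ERβ libraries deviated together in SW480 (r = 0.320, 0.151 and 0.251 over sites), so there the numbers were taken to pair the libraries. The labels do not say that they do. The reported fit has no block. In SW480 the block changed no call of a member, while the share of the 5337 sites called was 77.5% with it and 62% without it. Differences of the members between mock cells are given with no test.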

Additional observations from a re-analysis of the deposited data

Results flagged for a closer look

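Among the genes read beside the 6, the ERβ effect as deposited differed between the lines by its own test at NFKB1, which is why it is listed. It was the only 1 of the 12 feedback genes called, beside 32.6% of all sites and 12% of the 242 other promoter sites. ARHGAP31 is listed beside NFKB1 as a description. At NFKB1, which encodes the p105 precursor of an NFκB subunit, the effect in SW480 exceeded that in HT29 by 1.39 on the log2(signal + 1) scale (standard error 0.56, limma adjusted p = 0.0465). At ARHGAP31, the coding neighbour of ARHGAP31-AS1, the difference was 1.27 (standard error 0.38). That site was called in SW480 ERβ alone and so entered the sites tested only through the group where it is high, so its value is a description and its p is not given. The same test called 32.6% of 6112 sites as deposited, but 0.589% after centring, which moved the median of all sites from 0.92 to -0.02, and 1.77% with quantile normalisation. The NFKB1 call held under neither scaling, with 0.45 after centring (limma adjusted p = 0.576) and 0.38 with quantile normalisation (limma adjusted p = 0.483). ARHGAP31 was at 0.32 and 0.49. NFKB1 also lost its limma call without HT29 mock replicate 1 (adjusted p = 0.136), HT29 ERβ replicate 2 (0.160) or 3 (0.0871), SW480 mock replicate 1 (0.156) or 2 (0.0877) or SW480 ERβ replicate 2 (0.132) or 3 (0.118), with a pseudocount of 4 (0.0589), with local background subtracted (0.0510) and divided by input (0.0662). As deposited, ARHGAP31-AS1 itself had a difference of 1.17 that did not pass (limma adjusted p = 0.0724).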

How the results depend on the processing

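Of 564 member differences under the alternatives, 471 kept their direction and side of the threshold, 48 turned direction, with or without a call, and of those that kept it 31 others gained a call and 14 lost one. Both other pseudocounts, the 200-bp window, subtraction of local background, sites called in 3 of 3 libraries and the higher signal minimum changed none. The tracks hold no depth, so no limit of detection is given. The cause of each change below was not tested.

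Below, no count of members is given between mock cells, where their levels chose them, and their part of the totals above supports nothing. Centring put 1 member past the threshold in SW480 and 2 between ERβ cells, beside 7.1% and 41.5% of sites. It turned SDC4 (0.012), MRPL30 (0.0088) and KCTD11 (0.017) in HT29, ATG16L2 (-0.65), MRPL30 (-0.28), HMGXB4 (-0.25) and KCTD11 (-0.17) in SW480, MRPL30 (0.0036) and HMGXB4 (0.087) between mock cells, SDC4 (-0.024), ATG16L2 (-0.35) and MRPL30 (-0.29) between ERβ cells, and ATG16L2 (-0.64), MRPL30 (-0.29), HMGXB4 (-0.023) and KCTD11 (-0.19) in the interaction. It moved the median of all sites from -0.27 to -0.03 in HT29, from -0.66 to -0.41 between mock cells, from 0.93 to 0.23 between ERβ cells and from 0.92 to -0.02 in the interaction. Quantile normalisation gave 0 called members in SW480 and 3 between ERβ cells, beside 4.74% and 43.9% of sites. It turned SDC4 (0.071), ATG16L2 (0.051), MRPL30 (0.036) and KCTD11 (0.017) in HT29, ATG16L2 (-0.46), MRPL30 (-0.15) and HMGXB4 (-0.15) in SW480, ATG16L2 (-0.049) between mock cells, SDC4 (-0.17), ATG16L2 (-0.47), MRPL30 (-0.40), HMGXB4 (-0.043) and ARHGAP31-AS1 (-0.047) between ERβ cells, and ATG16L2 (-0.49) and MRPL30 (-0.17) in the interaction. Sites called in SW480 fell from 3311 to 379 with centring and 253 with quantile normalisation, those between ERβ cells from 3662 to 2389 with centring, and those of the interaction from 1995 to 36 and 108. In HT29 either scaling called 2 sites in place of 0. Division by input gave 3, 2 and 2 members past the threshold in SW480 (75.3% of sites), between ERβ cells (62.5%) and in the interaction (52%), and turned ATG16L2 (-0.18), ARHGAP31-AS1 (0.058) and KCTD11 (-0.25) between mock cells. The fit of all 12 libraries gave 2 between ERβ cells, beside 67.9% of sites.

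With 1 library left out, members past the threshold ranged from 0 to 5 in SW480 (27.8% to 94% of sites), 1 to 4 between ERβ cells (48.4% to 75.2%) and 0 to 3 in the interaction (16.9% to 64.7%). Differences that turned ranged in HT29 from -0.60 to 0.048 at SDC4, -0.61 to 0.027 at ATG16L2, -0.57 to 0.0015 at MRPL30 and -0.57 to 0.0012 at KCTD11. ATG16L2 ranged from -0.25 to 0.44 in SW480, -0.11 to 0.32 between mock cells and -0.0083 to 0.68 in the interaction, and HMGXB4 from -0.42 to 0.17 between mock cells.

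In HT29 the same-numbered libraries had r = 0.324, 0.0950 and 0.0962, and were not taken to pair. This r leaves out a height shared by all sites, such as that of replicate 1 in both HT29 groups. With the replicate block 1 member was called there (HMGXB4, -0.47, limma adjusted p = 0.0080) and 299 sites in place of 0, and in the interaction 4 members, SDC4, ARHGAP31-AS1, HMGXB4 and KCTD11, and 4598 sites (75.2%). The block changed no other call of a member.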
